A study of Rattus norvegicus with 9 samples.

Results

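The expression levels of 10 circadian clock genes, Clock, Per1, Per2, Per3, Cry1, Cry2, Nr1d1, Nr1d2, Dbp and Tef, were compared in rat right ventricles. They were chosen by name: each has to be the only gene symbol of a feature on the array, and 10 of 10 had 1 such feature among 29215. The 3 groups were of male Sprague-Dawley (SD) rats. The Sham group was sham-operated. In both PAB groups the pulmonary artery had been banded, which raises the pressure that the right ventricle has to pump against. At 4 weeks after banding, hearts with a fibrotic area above 6.5% formed the F+ group and hearts below it the F- group. No genetic change and no drug is named for any group. Each group was measured on 3 Affymetrix Rat Gene 1.0 ST arrays, and it is not stated whether these came from separate animals. All p-values here thus refer to the spread among these arrays alone, and that spread may be technical. F- and F+ hearts were separated by their fibrosis after the operation, so they are not separate treatments. The ages of these rats, and the time of day at which their hearts were collected, are not given in the sources used here. A difference in the time of collection between groups cannot be told apart from a difference between the groups.

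The circadian clock is a feedback loop of transcription that runs in nearly every cell, heart muscle cells included. The proteins CLOCK and BMAL1 (also called ARNTL) bind E-boxes as a pair and switch on the genes of the PER and CRY proteins, which return to the nucleus and inhibit the pair. The same pair drives the genes of the nuclear receptors REV-ERBα (Nr1d1) and REV-ERBβ (Nr1d2), which repress Bmal1 through ROR elements, and those of the output factors DBP and TEF, which bind D-boxes. In the heart this loop is known to set daily rhythms of metabolism and of ion channels, and the mRNA levels of most of these genes depend on the time of day. Per1 is also switched on directly by glucocorticoids and by acute stimuli.

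Promoter sequences of 300 bases, from 250 bases before the start of transcription to 50 after it, were taken from RefSeq (GRCr8) for 9 of the 10 genes, in 11 windows. Cry1 was the gene not matched. Those of Nr1d1, Nr1d2, Per3 and Dbp are shown because the 3 lowest values of each gene fell on F- array 1 and F+ arrays 1 and 2, that of Per2 because it held the one D-box among the members, and that of Bmal1 because it held a ROR element. They are written 5′ to 3′ on the strand of the gene, with the motifs found in capitals. Of Nr1d1 the window with the E-box is shown, and not that at its other start, which held another motif.
Nr1d1, chr10:84229405-84229704 (minus strand, an internal start): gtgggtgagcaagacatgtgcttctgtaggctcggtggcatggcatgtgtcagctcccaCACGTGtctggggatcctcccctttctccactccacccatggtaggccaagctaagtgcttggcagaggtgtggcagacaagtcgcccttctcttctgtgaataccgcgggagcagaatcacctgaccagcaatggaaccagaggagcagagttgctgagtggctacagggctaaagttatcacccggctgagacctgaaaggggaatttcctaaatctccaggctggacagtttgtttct
Nr1d2, chr15:9954784-9955083 (plus strand): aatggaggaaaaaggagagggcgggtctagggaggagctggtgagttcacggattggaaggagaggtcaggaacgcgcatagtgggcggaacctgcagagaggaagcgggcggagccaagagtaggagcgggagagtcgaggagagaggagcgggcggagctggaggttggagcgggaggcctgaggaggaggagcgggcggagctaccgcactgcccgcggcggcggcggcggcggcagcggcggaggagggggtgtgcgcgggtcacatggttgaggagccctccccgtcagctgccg
Per3, chr5:166777751-166778050 (minus strand): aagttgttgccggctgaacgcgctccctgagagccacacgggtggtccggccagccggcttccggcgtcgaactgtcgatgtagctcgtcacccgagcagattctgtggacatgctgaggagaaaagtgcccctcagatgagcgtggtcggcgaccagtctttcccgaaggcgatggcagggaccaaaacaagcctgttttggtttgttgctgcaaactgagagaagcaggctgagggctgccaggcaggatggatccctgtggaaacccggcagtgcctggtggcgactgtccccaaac
Dbp, chr1:105312006-105312305 (plus strand): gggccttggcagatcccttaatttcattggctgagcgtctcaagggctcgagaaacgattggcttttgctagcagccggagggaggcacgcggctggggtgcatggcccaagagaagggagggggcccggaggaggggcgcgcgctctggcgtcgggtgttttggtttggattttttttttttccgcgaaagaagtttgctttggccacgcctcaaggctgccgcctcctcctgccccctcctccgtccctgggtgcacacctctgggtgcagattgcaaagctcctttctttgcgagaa
Per2, chr9:99496944-99497243 (minus strand): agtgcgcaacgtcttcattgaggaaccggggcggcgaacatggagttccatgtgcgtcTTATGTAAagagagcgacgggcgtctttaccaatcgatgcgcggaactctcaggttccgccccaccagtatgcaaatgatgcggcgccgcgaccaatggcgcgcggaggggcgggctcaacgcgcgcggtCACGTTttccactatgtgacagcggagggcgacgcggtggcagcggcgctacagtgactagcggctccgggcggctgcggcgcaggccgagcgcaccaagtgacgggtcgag
Bmal1, chr1:176766078-176766377 (plus strand): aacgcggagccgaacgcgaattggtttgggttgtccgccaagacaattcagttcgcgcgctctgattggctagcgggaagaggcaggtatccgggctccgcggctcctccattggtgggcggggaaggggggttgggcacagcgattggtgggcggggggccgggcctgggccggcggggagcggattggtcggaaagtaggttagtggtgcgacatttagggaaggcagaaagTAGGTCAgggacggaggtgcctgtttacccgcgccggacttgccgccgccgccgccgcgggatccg
The capitals mark an E-box (CACGTG) 191 bases before the start in Nr1d1, its variant CACGTT 62 bases before the start and a D-box (TTATGTAA) 192 bases before the start in Per2, and the core TAGGTCA of a ROR element 16 bases before the start in Bmal1. Both strands were searched for the E-box CACGTG, the variant CACGTT, the D-boxes TTATGTAA and TTACGTAA, the ROR cores TAGGTCA and TGGGTCA and the cyclic AMP element TGACGTCA. None of these sequences is contained in another, though their ends can overlap. Of the 11 windows of the clock genes, 2 held the E-box (internal starts of Nr1d1 and Tef) and 3 the variant (Per2, Cry2 and the other start of Nr1d1). The D-box was in 1, and the ROR core or the cyclic AMP element in 0. The window of Per1, without a match, also lay at an internal start. That of Per3, which ends at 166778050, lay within the gene as well, since Per3 extends to 166778243. Of all 33469 windows of this length, 6.42% held the E-box, 4.83% the variant, 1.01% a D-box, 6.6% a ROR core and 1.83% the cyclic AMP element. A match is a description of these letters only, and the windows of Nr1d2, Per3 and Dbp shown above held no match of any of the 5.

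The values are signals on a scale not given in the sources used here. For the 9 arrays the medians lay between 33.4 and 33.9. Markers of ventricular muscle such as Myl3, a myosin light chain, were high on all arrays (171.3 to 175.2). Some arrays stood apart. Sham array 1 held the highest value of 13 of 13 immediate early genes, which respond within minutes to a stimulus, with a summed value of 998.9 against 690 to 798.8 on the other 8 arrays. Sham array 2 was highest for Sln, an atrial gene, at 115.1 against 38 to 53.8 on the others. F+ array 1 held the highest value of 5 of 5 red cell genes, with a summed value of 292.2 against 129.6 to 205.5 on the others. Across all features it correlated more closely with the Sham arrays (r = 0.987 to 0.989) than with F+ arrays 2 and 3 (r = 0.984 and 0.985). Over all features, F- array 1 correlated more closely with F+ arrays 2 and 3 (r = 0.986 and 0.985 across genes, which are not independent) than with F- arrays 2 and 3 (r = 0.983 and 0.984), but less closely with F+ array 1 (r = 0.981). A closest match in another group was not particular to these arrays. Sham array 1 was closest to F+ array 1 (r = 0.9873, against 0.9869 and 0.9870 with Sham arrays 2 and 3). Sham array 2 was closest to F- array 2 (r = 0.9901, against 0.9894 with Sham array 3). All r between arrays lay from 0.978 to 0.990. The summed value of 8 macrophage genes on F- array 1 was 512.3, against 408.5 and 417.5 on the other F- arrays and 509.9 to 565.1 on F+ arrays. Values without these arrays are given beside those results of the clock genes and gene lists that they moved most. Differences between groups are differences of mean log2 deposited values from limma, fitted over all features with Benjamini-Hochberg adjustment. The fold changes that the study printed for Nppa and Hbb match plain ratios of the group means of these values. Squares of log2 values are another scale that the range of square roots (1.0 to 13.8) would allow. On that reading, which is not the study's, the differences of square roots would be log2 fold changes. These are given beside the main ones for Nr1d2, Nr1d1, Dbp, Per3 and Per1.

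**Figure D1:**
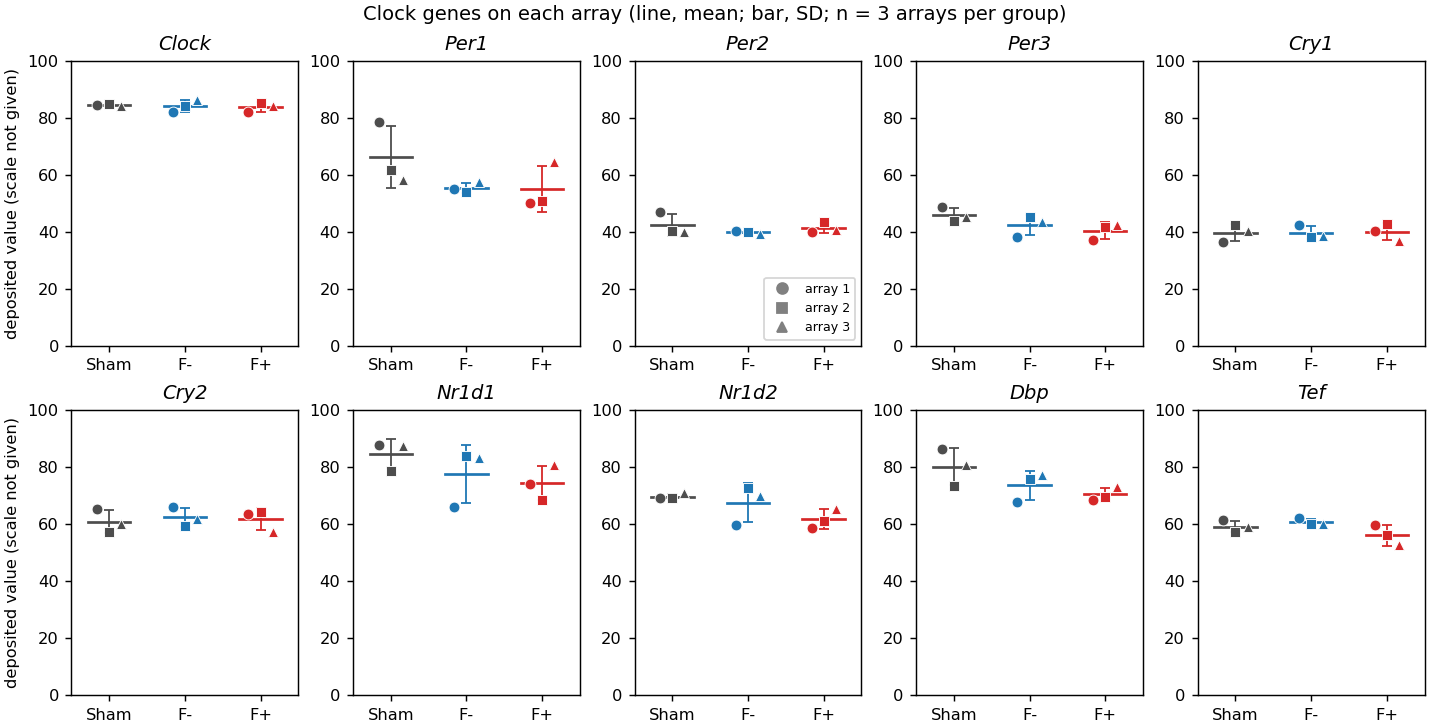
Deposited values (vertical axis from 0, scale not given) of the 10 clock genes on each array in each group (Sham, F- and F+). Circles, squares and triangles stand for arrays 1, 2 and 3, lines mark means and bars mark SDs (3 arrays per group). The F+ arrays of Nr1d2 lie at 58.5 to 65.4 and the Sham arrays at 69 to 70.9, while the arrays of Clock lie between 82 and 86.2 in all groups.

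In F+ hearts the expression levels of Nr1d2, Per3 and Dbp were lower on every array than on any Sham array, but no clock gene passed the adjusted threshold of 0.05. Nr1d2, which encodes the repressor REV-ERBβ, gave 58.5, 61.2 and 65.4 on F+ arrays, 59.8, 72.7 and 69.9 on F- arrays, and 69.1, 69 and 70.9 on Sham arrays. F- array 1 thus lay among the F+ arrays, and F- arrays 2 and 3 lay with the Sham arrays. The log2 difference between F+ and Sham hearts was -0.18 (95% confidence interval -0.35 to -0.0057, standard error 0.074, limma adjusted p = 0.666). The difference of square roots was -0.49, which would be 1.41-fold if the values were squares of log2 values. Between F+ and F- hearts the log2 difference of Nr1d2 was -0.13 (standard error 0.074, limma adjusted p = 0.723). Without F- array 1 this became -0.21 (standard error 0.049, limma adjusted p = 0.207, and 0.129 to 0.918 over all settings). F- and Sham hearts differed by -0.051 (95% confidence interval -0.22 to 0.12), and by 0.033 without F- array 1.

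Nr1d1, which encodes REV-ERBα, a repressor of Bmal1, gave 74, 68.5 and 80.6 on F+ arrays, 66, 83.8 and 83.1 on F- arrays, and 87.9, 78.8 and 87.5 on Sham arrays. F- array 1 held the lowest value of all, and the F+ and Sham arrays overlapped only through F+ array 3 and Sham array 2. The log2 difference between F+ and Sham hearts was -0.19 (95% confidence interval -0.43 to 0.050, standard error 0.10, limma adjusted p = 0.707). The difference of square roots was -0.58. Between F+ and F- hearts it was -0.057 on the log2 scale (standard error 0.10, limma adjusted p = 0.910) and -0.17 without F- array 1. It lay between -0.17 and 0.0028 when 1 array was left out. The difference between F- and Sham hearts was -0.13, and -0.020 without F- array 1.

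Dbp, which encodes a D-box activator and is driven directly by CLOCK and BMAL1, gave 68.6, 69.6 and 73 on F+ arrays, 67.7, 75.8 and 77.3 on F- arrays, and 86.4, 73.4 and 80.7 on Sham arrays. F+ array 3 and Sham array 2 were nearly equal, and F- array 1 was the lowest of the 9. The log2 difference between F+ and Sham hearts was -0.18 (95% confidence interval -0.35 to -0.021, standard error 0.071, limma adjusted p = 0.655), and that of square roots was -0.56, which would be 1.47-fold on that reading. Without Sham array 1, the highest, the log2 difference was -0.13 (limma adjusted p = 0.818, and 0.338 to 0.920 over all settings). Between F- and Sham hearts the log2 difference was -0.12 (standard error 0.071, limma adjusted p = 0.743), and -0.0078 when both Sham array 1 and F- array 1 were dropped, which was tried after seeing the data. Between F+ and F- hearts it was -0.062 (limma adjusted p = 0.847), which became -0.12, -0.040 and -0.026 when F- array 1, 2 or 3 was left out.

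Tef, which encodes another D-box activator of the same family, was highest on F- array 1, where Dbp was lowest. It gave 59.7, 56 and 52.5 on F+ arrays, 62.1, 60.1 and 59.9 on F- arrays, and 61.3, 57.3 and 58.8 on Sham arrays. Every F+ array lay below every F- array, though F+ array 1 (59.7) and F- array 3 (59.9) were nearly equal. The log2 difference between F+ and F- hearts was -0.12 (95% confidence interval -0.23 to -0.0020, standard error 0.049, limma adjusted p = 0.672), and -0.070 without F+ array 3. F+ and Sham hearts differed by -0.078 (limma adjusted p = 0.734), and F- and Sham hearts by 0.038 (limma adjusted p = 0.850).

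Among the PER genes, Per3 and Per1 differed most from the Sham group and Per2 least. Per3, which encodes a period protein with a minor known part in the feedback, gave 37, 41.7 and 42.5 on F+ arrays, 38.3, 45.2 and 43.6 on F- arrays, and 48.9, 44 and 45.1 on Sham arrays. F- array 1 again lay among the F+ arrays. The log2 difference between F+ and Sham hearts was -0.19 (95% confidence interval -0.37 to -0.0054, standard error 0.079, limma adjusted p = 0.666), and that of square roots was -0.43. On the log2 scale it was -0.14 without Sham array 1. Between F+ and F- hearts Per3 had a log2 difference of -0.068 (limma adjusted p = 0.850), which became -0.14, -0.019 and -0.045 when F- array 1, 2 or 3 was left out, and -0.0056 and -0.11 when F+ array 1 or 3 was. Between F- and Sham hearts it was -0.12 (limma adjusted p = 0.753), and -0.050 without F- array 1 and -0.076 without Sham array 1. Per1, a repressor that glucocorticoids also induce, gave 78.7, 61.8 and 58.2 on Sham arrays, 55, 54.1 and 57.4 on F- arrays, and 50.1, 50.8 and 64.4 on F+ arrays. The F- arrays lay below every Sham array, while F+ array 3 lay above 2 of the 3 Sham arrays. The log2 difference was -0.24 between F- and Sham hearts (95% confidence interval -0.55 to 0.060, standard error 0.13, limma adjusted p = 0.743) and -0.26 between F+ and Sham hearts (standard error 0.13, limma adjusted p = 0.692). The differences of square roots were -0.67 and -0.71, which would be 1.59-fold and 1.64-fold on that reading. Without Sham array 1, which also held the highest value of 13 of 13 immediate early genes, the log2 differences were -0.11 and -0.13. The part of that array's other genes in the Per1 result was not tested.

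Per2, a core repressor of CLOCK and BMAL1, gave 46.9 on Sham array 1 and 39.4 to 43.4 on the other 8 arrays. Its log2 difference was -0.030 between F+ and Sham hearts (95% confidence interval -0.18 to 0.12) and turned to 0.045 without Sham array 1. Cry1 and Cry2 encode the cryptochromes, the main inhibitors of the CLOCK and BMAL1 pair. Cry1 was lowest on Sham array 1 (36.4) and F+ array 3 (36.9) and highest on F+ array 2 (42.8). Its group means were 39.7 ± 3.01 (SD, n = 3) in Sham hearts, 39.8 ± 2.28 (SD, n = 3) in F- hearts and 40.0 ± 2.97 (SD, n = 3) in F+ hearts. Cry2 was 60.8 ± 4.03 (SD, n = 3), 62.4 ± 3.42 (SD, n = 3) and 61.7 ± 3.87 (SD, n = 3) in the same order. Between F+ and Sham hearts the log2 difference was 0.012 for Cry1 (95% confidence interval -0.16 to 0.19) and 0.022 for Cry2 (95% confidence interval -0.13 to 0.18). The groups thus overlapped for Per2 and both cryptochromes in every comparison.

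Clock, the activating partner of BMAL1, had nearly the same value on all arrays. It was 84.6 ± 0.265 (SD, n = 3) in Sham hearts, 84.2 ± 2.11 (SD, n = 3) in F- hearts and 83.9 ± 1.75 (SD, n = 3) in F+ hearts. The log2 difference between F+ and F- hearts was -0.0045 (95% confidence interval -0.069 to 0.060, limma adjusted p = 0.978), and its sign turned after quantile normalization. Of the genes whose products work with CLOCK, Bmal1 was 57.1 to 60.1 on Sham arrays, 58.1 to 63.9 on F- arrays and 59.5 to 60.9 on F+ arrays, a log2 difference of 0.026 between F+ and Sham hearts (95% confidence interval -0.066 to 0.12). Npas2, which can take the place of Clock, was 68.1 to 71.4 on Sham arrays, 66.2 to 72.6 on F- arrays and 65.3 to 68.5 on F+ arrays, with -0.061 on the same scale (95% confidence interval -0.16 to 0.034).

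**Figure D2:**
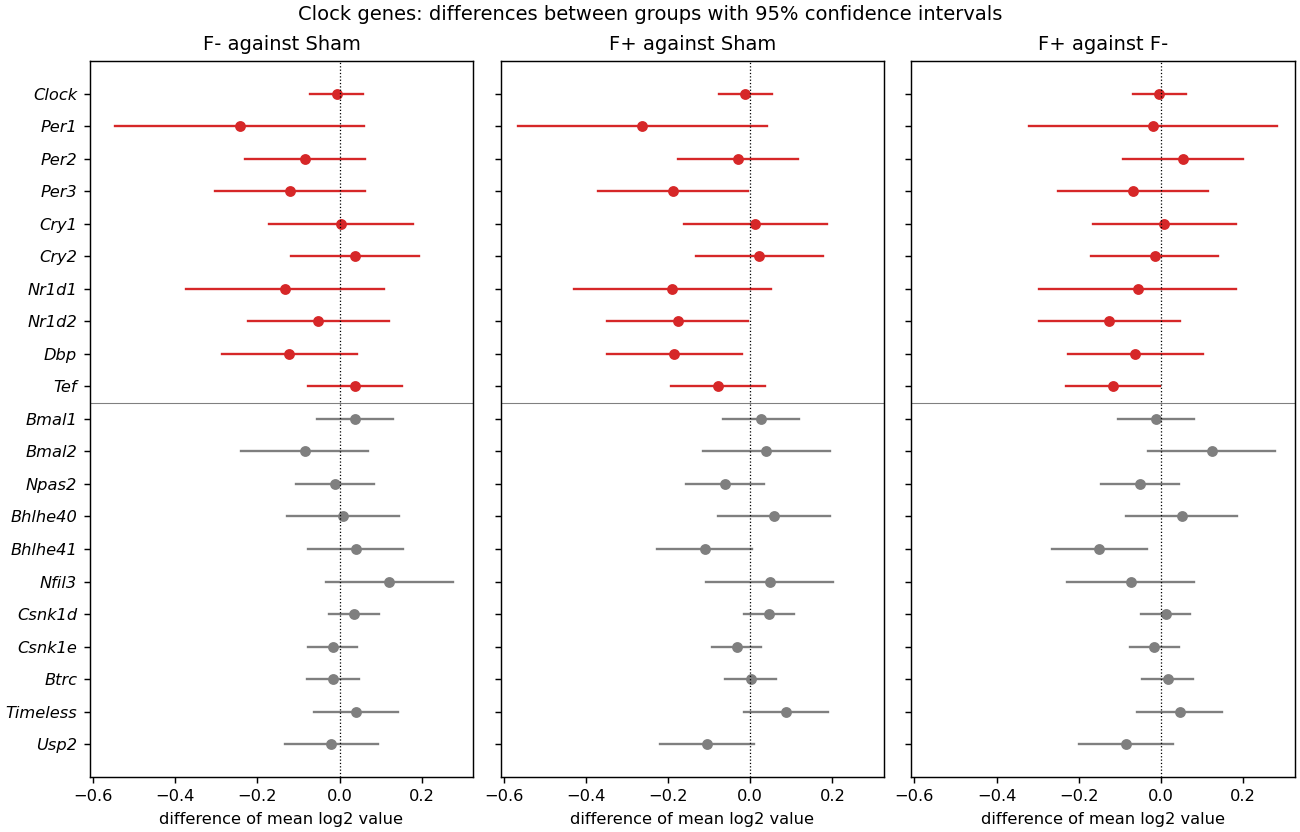
Differences of mean log2 deposited values (horizontal axis) as points with 95% confidence intervals from limma as lines, for the 10 clock genes (red) and 11 other clock genes (grey), with the F- group against the Sham group, the F+ group against the Sham group and the F+ group against the F- group from left to right. In the middle panel the intervals of Per3, Nr1d2 and Dbp lie below 0, and that of Clock spans -0.076 to 0.053.

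As a group, the 10 clock genes had lower values in F+ hearts than in Sham hearts for 8 genes, where 52.4% of all 29215 features were lower. Their median log2 difference was -0.13, against -0.0035 over all features. None of the 10 passed limma's adjusted threshold, where 0% of all features did. An unadjusted p under 0.05 was found for 3 genes, Per3, Nr1d2 and Dbp, each lower, where 3.9% of all features were lower, 3.5% were higher and 7.4% in all had such a p. The same 3 were those whose F+ and Sham arrays did not overlap, where 6.56% of all features were lower and 5.69% higher without overlap. The count of 3 became 0 without Sham array 1 or F+ array 2, and 1 without Sham array 3, F+ array 1 or F- array 3. It was 2 to 4 when any other single array was left out. The single gene was Per1 without Sham array 3, Tef without F+ array 1 and Dbp without F- array 3. Between F+ and F- hearts, 8 of the 10 were lower, where 51.6% of all features were, with a median of -0.038 against -0.0023. That median became -0.021 and -0.079 when F+ array 1 or 3 was left out, and -0.063 and -0.017 when F- array 1 or 3 was. Adjusted over all features, 0 of the 10 passed, where 0.00342% of all features did. Tef had an unadjusted p under 0.05 and did not overlap, in both cases lower. Such a p was found for 7.41% of all features, 3.76% lower and 3.65% higher, and no overlap for 5.28% lower and 4.46% higher. Without F- array 1 it was Nr1d2 and not Tef that had such a p. No clock gene had one without F- array 2, F- array 3, F+ array 2, F+ array 3, Sham array 2 or Sham array 3, nor after quantile normalization or with the F+ and F- arrays fitted alone. Between F- and Sham hearts, 7 of the 10 were lower, where 51.7% of all features were. The median was -0.068 against -0.0025, -0.032 without F- array 1, and 0.0011 with Sham array 1 and F- array 1 left out. By limma 0 of the 10 passed, where 0% of all features did, and 0 of the 10 had an unadjusted p under 0.05, where 6.03% of all features had, 2.96% lower and 3.07% higher. Without Sham array 2 it was 1, Dbp, and without Sham array 3 it was 1, Per1. Per1, lower in F- hearts, was the gene without overlap, where 4.64% of all features were lower and 5.15% higher. The 3 comparisons share groups, so their counts are not separate evidence.

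Nr1d2, Per3 and Dbp were also compared array by array. F- array 1 and F+ arrays 1, 2 and 3 held the 4 lowest values of each of these 3 genes. They were picked out because every F+ array lay below every Sham array, so only the places of the F- arrays add to that. For Nr1d1, which overlapped, Sham array 2 ranked 4 and F+ array 3 ranked 5 from the lowest. F- array 1 was the lowest for Nr1d1 and Dbp, and F+ array 1 for Nr1d2, Per3 and Per1. Sham array 1 was the highest for Per1, Per2, Per3, Nr1d1 and Dbp, 5 of the 10 genes, and the lowest for Cry1. The 4 arrays with low values also held the 4 highest summed values of the macrophage genes, 509.9 to 565.1 against 408.5 to 463.8 on the other 5. The part of those cells in the result was not tested. In whole ventricle, fewer cells of a type and less RNA per cell cannot be told apart.

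**Figure D3:**
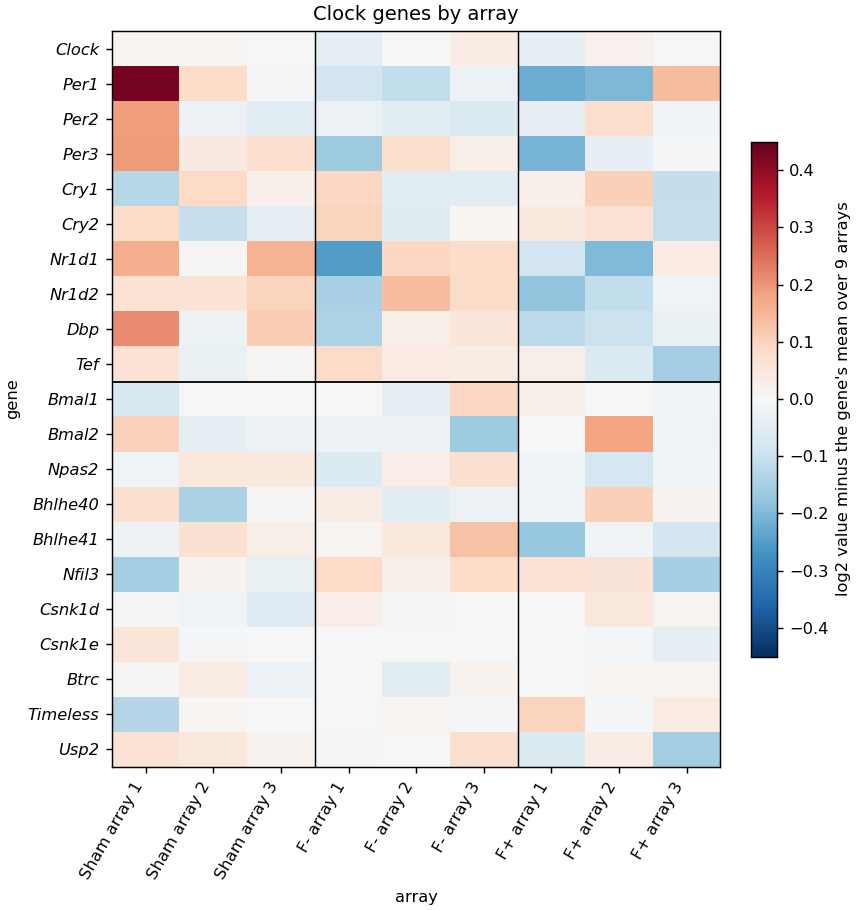
Log2 deposited value of each clock gene minus its mean over 9 arrays (colour, red higher and blue lower) on each array (columns, grouped as Sham, F- and F+), with the 10 clock genes above the black line and 11 other clock genes below it. Per3, Nr1d2 and Dbp lie below their means on F- array 1 and on all 3 F+ arrays, on F+ array 3 by little.

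The arrays of one group differed more in most clock genes than in other features of like level. The SD within groups of the log2 value was 0.18 for Per1, 0.14 for Nr1d1, 0.099 for Nr1d2, 0.095 for Dbp and 0.089 for Cry2. Each of these 5 lay in the upper 10% of all features in the same 10% band of mean values, at percentiles of 98.5, 98.4, 94.0, 93.0 and 91.1. The medians of those features were 0.037 to 0.046. Per3 lay at percentile 89.7, Cry1 at 84.7, Per2 at 81.3 and Tef at 72.1, so that 9 of the 10 were above the middle. Clock was the exception at percentile 27.6, with an SD of 0.027. Bmal1 lay at percentile 59.5 and Npas2 at 61.9. The number in the upper 10% was 4 to 6 when 1 array was left out. These percentiles are a description, and no test was made of them.

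**Figure D4:**
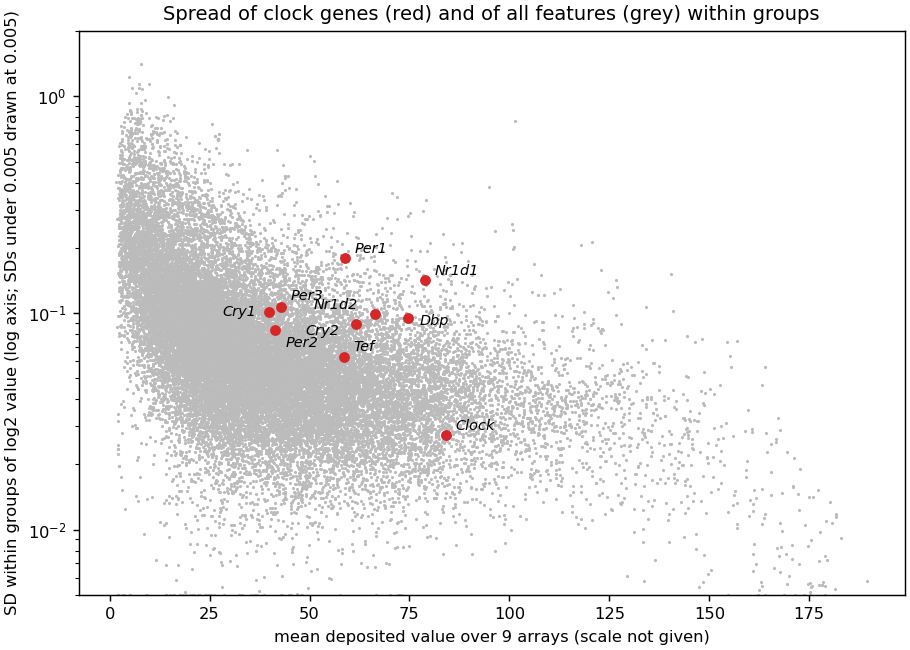
SD within groups of the log2 value (vertical axis, logarithmic) against the mean deposited value over 9 arrays (horizontal axis, scale not given) for all 29215 features (grey) and the 10 clock genes (red). Per1 (0.18) and Nr1d1 (0.14) lie near the top of the features of like level, and Clock (0.027) lies below their middle.

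BMAL1, with CLOCK as its partner, drives most of the other clock genes, and REV-ERBα represses Bmal1 in turn. Each clock gene, Clock included, was thus set against Bmal1 over the 9 arrays, in 10 relations. Pearson's r was lowest for Per2, at -0.61 (exact permutation p = 0.114, 0.769 adjusted over the 10 relations). Its Spearman's rho was -0.54 (exact permutation p = 0.138, adjusted 0.434). Without F- array 3 and Sham array 1, the 2 arrays farthest from the median of Bmal1, r was 0.17, so the relation rests on those arrays. For Per3, r was -0.44 (exact permutation p = 0.231, adjusted 0.769) and rho -0.63 (exact permutation p = 0.0778, adjusted 0.434), and without those 2 arrays r was -0.63. Per1 gave r = -0.48 (exact permutation p = 0.183, adjusted 0.769) and rho = -0.50 (exact permutation p = 0.181, adjusted 0.434). For Nr1d1, r was -0.22 (exact permutation p = 0.579, adjusted 0.842) and rho -0.46 (exact permutation p = 0.217, adjusted 0.434). Nr1d2 gave r = -0.18 (exact permutation p = 0.656, adjusted 0.842) and rho = -0.33 (exact permutation p = 0.386, adjusted 0.552), and Dbp r = -0.34 (exact permutation p = 0.373, adjusted 0.842) and rho = -0.34 (exact permutation p = 0.372, adjusted 0.552). Without the same 2 arrays, r was -0.20 for Per1, -0.43 for Nr1d1, -0.68 for Nr1d2 and -0.42 for Dbp. Cry1 was the gene with the highest r, 0.31 (exact permutation p = 0.439, adjusted 0.842), with rho = 0.53 (exact permutation p = 0.149, adjusted 0.434). For Clock r was 0.17 and rho 0.066 (exact permutation p = 0.673 and 0.869), for Tef -0.037 and -0.12 (exact permutation p = 0.918 and 0.759), and for Cry2 -0.011 and 0.083 (exact permutation p = 0.976 and 0.834). None of the 10 relations passed, and 0 of 10 had an unadjusted exact permutation p under 0.05 for either r or rho. The labels and the file name no technical batch, so no value within batches could be given. As deviations from group means, r was -0.55 for Per2, -0.35 for Per3, -0.37 for Per1 and -0.054 for Nr1d1.

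Dbp was the reference for the search of other genes with a like pattern, over the 9 arrays and 11585 features with 1 symbol outside the dimmest 33.3%. Of the clock genes themselves, Per3 ranked 25 from the highest (r = 0.91), Nr1d1 38 (r = 0.89), Nr1d2 268 (r = 0.78) and Per1 391 (r = 0.75), while Tef had r = 0.20, Cry2 -0.11 and Cry1 -0.66. The 5 highest were Colq (r = 0.96), which encodes the collagen tail of acetylcholinesterase, Atp6v0a1 (0.96), a subunit of the proton pump of vesicles, Spag1 (0.95), Uhrf2 (0.95), a ubiquitin ligase, and Tmem182 (0.94). Colq gave 52.6, 43.1 and 47.1 on Sham arrays, 37, 46.4 and 46.2 on F- arrays, and 37.4, 36.7 and 42.9 on F+ arrays. As for Dbp, F- array 1 and the F+ arrays held its 4 lowest values. The 5 lowest were Poldip2 (r = -0.97), Gnao1 (-0.96), which encodes a G protein subunit, Hopx (-0.95), a regulator of heart muscle development without DNA binding, Inpp5a (-0.94), an inositol phosphatase, and Tpcn1 (-0.93), an ion channel of lysosomes. Gnao1 gave 69.6, 84.9 and 75.3 on Sham arrays, 96.2, 81.3 and 75.1 on F- arrays, and 96.5, 99.8 and 90.6 on F+ arrays. These correlations over 9 arrays describe the extremes of many genes on the same arrays and carry no test.

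Of 18 other clock genes listed, 11 had a feature with 1 symbol, and none passed limma in any comparison. Their medians were 0.026 between F+ and Sham hearts, 0.0077 between F- and Sham hearts and -0.012 between F+ and F- hearts. In the last comparison Bhlhe41 (DEC2), a repressor that competes for E-boxes, gave 35.3 to 39.4 on F+ arrays and 40 to 43.5 on F- arrays. Its log2 difference was -0.15 (standard error 0.050, limma adjusted p = 0.635). It was the 1 gene of the 11 with an unadjusted p under 0.05. Such a p was found for 7.41% of all features, 3.76% lower and 3.65% higher. Its paralog Bhlhe40 (DEC1) had 0.050 on the same scale (standard error 0.059). Nfil3, which encodes a repressor at D-boxes and so opposes Dbp and Tef, gave 49.3 to 51.7 on F- arrays and 43.7 to 49.1 on Sham arrays (log2 difference 0.12, limma adjusted p = 0.743). On the F+ arrays it gave 50.8, 50.5 and 43.8. Usp2, a deubiquitinase with a strong daily rhythm in many tissues, was 63, 67.5 and 59.1 on F+ arrays and 66.6 to 68.9 on Sham arrays (log2 difference -0.10, limma adjusted p = 0.688). Csnk1d and Csnk1e encode the kinases that mark PER proteins for breakdown. Csnk1d was 67.9 to 70.1 on F+ arrays and 65.2 to 67.4 on Sham arrays (log2 difference 0.046, limma adjusted p = 0.713), and Csnk1e had -0.033. Btrc, part of the ligase that removes PER proteins, had 0.00096, Timeless 0.086 and Bmal2, a paralog of Bmal1, 0.039 between the same groups.

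Outputs of the clock had differences in both directions. Of 19 genes listed as clock outputs, 8 were higher and 11 lower in F+ hearts than in Sham hearts, with a median of -0.0030, and 0 passed limma. Nampt, the rate-limiting enzyme of NAD salvage, gave 88 to 91.6 on F+ arrays, 85.3 to 93.4 on F- arrays and 82.1 to 84.7 on Sham arrays. Its log2 difference was 0.12 between F+ and Sham hearts (standard error 0.039, limma adjusted p = 0.624) and 0.088 between F- and Sham hearts (limma adjusted p = 0.743). Tsku, a secreted inhibitor of signalling, had a log2 difference of 0.22 between F+ and Sham hearts (limma adjusted p = 0.633). Between F+ and F- hearts it was 0.13 (limma adjusted p = 0.719). Without F+ array 2, where Tsku was highest, these differences were 0.14 and 0.054. Lpin1, a phosphatase of lipid synthesis, had -0.081 between F+ and F- hearts (limma adjusted p = 0.698). Tfrc, the transferrin receptor, was 42.4 on Sham array 1 and 70.7 to 87.6 on the other 8 arrays, with the other Sham arrays at 74.8 and 75.1. Its log2 difference was 0.41 between F- and Sham hearts (limma adjusted p = 0.743), and 0.13 without Sham array 1.

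Genes of the glucocorticoid response, which include Per1, were lower in F- hearts than in Sham hearts for 13 of 13 genes, with a median log2 difference of -0.11 against -0.0025 over all features, and 0 passed limma. Sham array 1 held the highest value of 8 of them, and without it 10 of the 13 were lower, with a median of -0.048. Pdk4, which restrains glucose oxidation, gave 140.5, 112.3 and 109.3 on Sham arrays and 94.7 to 105.5 on F- arrays (log2 difference -0.26, standard error 0.091, limma adjusted p = 0.743, and -0.15 without Sham array 1). Klf9 gave 74.7, 67.6 and 72.1 on Sham arrays, 61.7 to 69.4 on F- arrays and 64 to 66.9 on F+ arrays, a log2 difference of -0.12 against the Sham group in each PAB group (limma adjusted p = 0.743 and 0.670). Dusp1, a phosphatase of stress kinases, had -0.13 between F+ and Sham hearts (limma adjusted p = 0.670, and -0.064 without Sham array 1), and Fkbp5, a chaperone partner of the glucocorticoid receptor, had 0.13 between F+ and F- hearts (limma adjusted p = 0.701), where Pdk4 had 0.17 (limma adjusted p = 0.704). In F+ hearts 8 of the 13 were lower than in Sham hearts, with a median of -0.052, but 5 of the 13 without Sham array 1, with a median of 0.022. Of 13 immediate early genes, 11 were lower in F- hearts and 8 in F+ hearts than in Sham hearts, with medians of -0.095 and -0.065, and 0 passed limma in any comparison. These directions turned without Sham array 1, where 1 was lower and 12 higher in F- hearts (median 0.077) and 2 were lower and 11 higher in F+ hearts (median 0.11). Nr4a1 gave 92.6 on Sham array 1 and 47.8 to 59.6 on the other 8 arrays, and Egr1 137.6 against 87.2 to 106.5. The log2 difference was -0.18 for Nr4a1 between F- and Sham hearts and -0.19 for Egr1 between F+ and Sham hearts (limma adjusted p = 0.847 and 0.775), and without Sham array 1 it was 0.12 and -0.0072. Fosl2 (0.083) and Jun (-0.081) had the smallest p-values of these genes between F+ and F- hearts (limma adjusted p = 0.752 and 0.832). Of 3 cold-inducible genes, 3 were lower in F+ hearts than in Sham hearts, with Srsf5 at -0.11 (limma adjusted p = 0.663), Cirbp at -0.081 (limma adjusted p = 0.759) and Rbm3 at -0.029, and 0 passed. Without Sham array 1, Srsf5 was at -0.066 and Rbm3 at 0.0075, so that 2 of the 3 were lower.

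**Figure D5:**
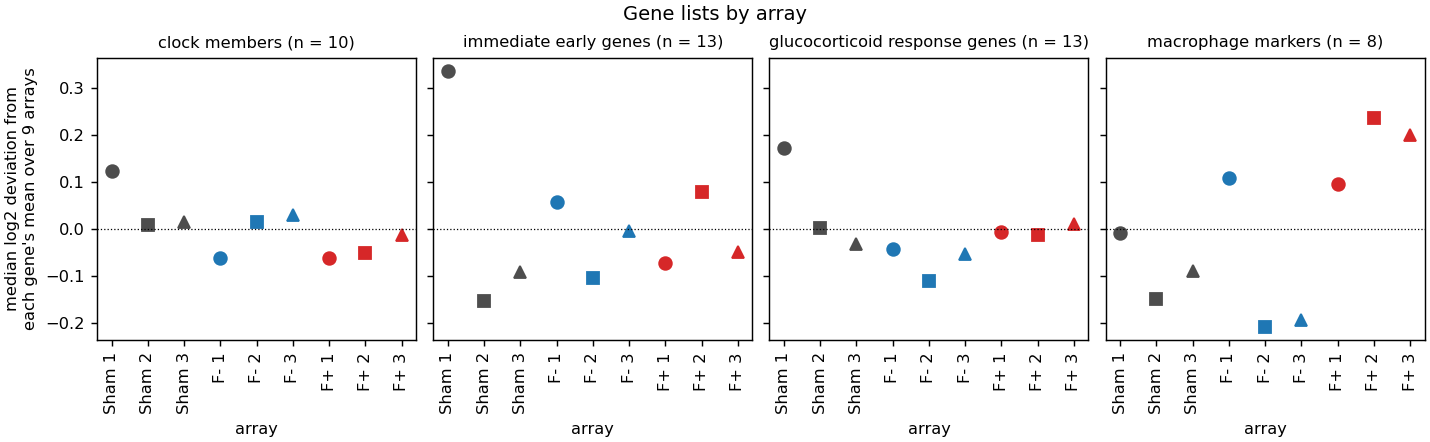
Median log2 deviation of each gene list from each gene's mean over 9 arrays (vertical axis) on each array (horizontal axis), with Sham in grey, F- in blue and F+ in red and arrays 1, 2 and 3 as circle, square and triangle. Sham array 1 lies at 0.12 for the clock genes, 0.34 for the immediate early genes and 0.17 for the glucocorticoid response genes, while the macrophage genes are high on F+ arrays and F- array 1.

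Marker lists of other cells were set beside the clock genes over the same arrays. The 8 macrophage genes were higher in F+ hearts than in F- hearts for 8 of 8, with summed values of 509.9 to 565.1, 408.5 to 512.3 and 431.4 to 463.8 in the F+, F- and Sham groups. For 5 red cell genes the sums were 180.4 to 292.2, 129.6 to 143.9 and 144.5 to 161.5, with Ahsp the lowest marker at 4.7 to 10.9. For 7 fibroblast genes they were 576.6 to 628.3, 558.9 to 620 and 551.5 to 594.7. For 10 ventricular muscle genes they were 1562.8 to 1585.5, 1585.8 to 1613.2 and 1569.8 to 1605.7. These muscle genes were lower in F+ hearts than in F- hearts for 10 of 10, where 51.6% of all features were lower. Their median log2 difference was small, at -0.015. For 4 endothelial genes the sums were 316.3 to 321.4, 308 to 316.8 and 314.1 to 319.3, and for 5 adipocyte genes 122.3 to 123.6, 118.6 to 122 and 121.9 to 126. For 3 atrial genes they were 248.7 to 276, 183.1 to 262.5 and 195.8 to 400.8, the last with Sham array 2. The lowest value of any feature was 1, so no marker could be at 0. None of these lists had a gene that passed limma, and their part in the differences of the clock genes was not tested.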

How the data were processed

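RNA of right ventricles was hybridized to 9 Affymetrix Rat Gene 1.0 ST arrays, 3 per group. For its preparation the methods name TRIzol and labeled sense-strand cDNA, and the sample records Sepasol and biotinylated cRNA. Each deposited signal belongs to 1 feature on 1 array. The sources used here do not say how the authors corrected, normalized and scaled the signals, and the number of arrays limits the precision. All 29215 features entered, with 0 columns unused. In the platform annotation 15310 had 1 gene symbol, 323 had several and 13582 were not listed, and 15279 were matched by gene ID to RefSeq (GRCr8), where Arntl is Bmal1.

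After log2 transformation, 1 mean per group was fitted with limma 3.58.1 (lmFit, eBayes; R 4.3.3 and data.table version 1.17.8), and p-values were adjusted over all features (Benjamini-Hochberg, threshold 0.05). The fit was tested on simulated data. Correlations used exact two-sided permutation tests. Python 3.11.15 with matplotlib 3.10.9 drew the plots. The clock genes and the gene lists were chosen with earlier results of these data known. All clock genes are named, with up to 2 genes of each other list by smallest p in each comparison, and the 5 genes most and 5 least correlated with Dbp. Myl3, Sln and Ahsp were named after their values were seen. As alternatives, the scale (square roots, untransformed values), the normalization (quantile, median centring), the features (dimmest 33.3% left out, 1 symbol only, mean per gene), the model (replicate block, 2 groups alone, trend with robust priors) and the arrays (each left out) were changed. Dropping Sham array 1 with F- array 1, square roots without F- array 1, and the other lists with 1 array left out, were added after seeing the data.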

Additional observations from a re-analysis of the deposited data

How the results depend on the processing

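No clock gene passed in any comparison under any alternative, and 0 of the 10 relations with Bmal1 passed under the scalings tried or with 1 array left out. No source used here pairs arrays of the same replicate number. Deviations of same-numbered arrays correlated between -0.21 and 0.053, and those of differently numbered arrays between -0.12 and 0.26. These ranges overlap, so they cannot decide whether the arrays were paired. With the replicate number as a block, 0 clock genes passed in each of the 3 comparisons, and the number with an unadjusted p under 0.05 between F+ and Sham hearts was 1 (Nr1d2) in place of 3. Of the values whose direction turned, the largest over all arrays were the difference of Nr1d1 between F- and Sham hearts (-0.13) and the correlation of Dbp with Bmal1 (-0.34). For Clock the difference between F+ and F- hearts became 0.0039 after quantile normalization, and that between F- and Sham hearts became 0.0014 after median centring. With Bmal1, r became -0.025 for Clock after quantile normalization, and 0.099 for Cry2 and 0.024 for Tef after median centring. With Sham array 1 and F- array 1 left out, the log2 difference between F- and Sham hearts became 0.013 for Clock, -0.10 for Cry1, 0.0072 for Nr1d1, 0.027 for Nr1d2 and 0.0049 for Npas2. In the same setting that between F+ and Sham hearts became 0.045 for Per2 and -0.049 for Cry1, and that between F+ and F- hearts 0.026 for Cry2. Square roots without F- array 1 gave differences between F- and Sham hearts of 0.038 for Clock, -0.097 for Cry1, -0.014 for Cry2, 0.097 for Nr1d2 and 0.077 for Npas2, and 0.074 for Cry2 between F+ and F- hearts.

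With 1 array left out, the log2 difference between F+ and F- hearts ranged from -0.023 to 0.013 for Clock, -0.14 to 0.044 for Per1, -0.041 to 0.066 for Cry1, -0.052 to 0.038 for Cry2, -0.17 to 0.0028 for Nr1d1 and -0.043 to 0.026 for Bmal1. Between F- and Sham hearts it ranged from -0.024 to 0.012 for Clock, -0.057 to 0.051 for Cry1, -0.0044 to 0.089 for Cry2, -0.11 to 0.033 for Nr1d2 and -0.040 to 0.027 for Npas2. Between F+ and Sham hearts it ranged from -0.024 to 0.0051 for Clock, -0.072 to 0.045 for Per2, -0.049 to 0.070 for Cry1 and -0.020 to 0.075 for Cry2. The range of r with Bmal1 was -0.42 to 0.35 for Clock, -0.018 to 0.74 for Cry1, -0.13 to 0.30 for Cry2, -0.59 to 0.034 for Nr1d1, -0.75 to 0.12 for Dbp and -0.26 to 0.21 for Tef. These turns come with fewer arrays in the fit, and no other cause was tested.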
